A study of Mus musculus with 6 samples.

Results

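The MAP kinase phosphatases are 9 genes, Dusp1, Dusp2, Dusp4, Dusp5, Dusp6, Dusp7, Dusp8, Dusp10 and Dusp16, followed here in DC2.4, a mouse dendritic cell line. They were taken by gene symbol from a count table of 54532 genes, each symbol had 1 row there, and all 9 passed the filter on low counts, as did 12844 genes in all. Messenger RNA libraries came from 3 samples of cells that received pTT5 without an insert (empty vector) and 3 samples labelled as overexpressing Vdbp from pTT5. Vdbp is the serum protein that binds vitamin D, encoded in the mouse by Gc. Per the labels, both groups were passaged 48 h after transfection and put into selective medium on the next day. The labels do not say whether the 3 samples of a group came from separate transfections, so every interval and p-value measures only the spread between these samples. The set was put together around Dusp2, which had been picked because it differed between these 2 groups, so the difference in Dusp2 is a description and carries no test. In such bulk samples, fewer cells of a type and less RNA per cell cannot be told apart.

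MAP kinases (ERK, JNK and p38) are switched on by phosphorylation of a threonine and a tyrosine in their activation loop, and MAP kinase phosphatases remove both phosphates. Dusp1, Dusp2, Dusp4 and Dusp5 encode nuclear enzymes whose genes are themselves induced by MAP kinase signalling. Dusp6 and Dusp7 encode cytoplasmic enzymes with a preference for ERK, and Dusp8, Dusp10 and Dusp16 encode enzymes that act mainly on JNK and p38. In dendritic cells and macrophages, Dusp1 is a known brake on p38 and on cytokine production after Toll-like receptor signals, and Dusp2 was first described in activated haematopoietic cells.

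What makes these genes a family is the catalytic site, so the bases that encode its signature are shown for each member, from GENCODE M21 transcripts (GRCm38). The stretch runs 5′ to 3′ on the coding strand, and the capitals mark the codons of the catalytic cysteine and of the arginine that closes the loop.
Dusp1: catTGCcaggccggcatctccCGG
Dusp2: cacTGCcaagctggcatctctCGC
Dusp4: cacTGCcaggccggcatctccCGA
Dusp5: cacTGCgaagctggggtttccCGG
Dusp6: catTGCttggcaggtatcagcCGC
Dusp7: cacTGCctagcaggcatcagcCGT
Dusp8: cacTGTctggctggcatctctCGC
Dusp10: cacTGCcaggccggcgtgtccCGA
Dusp16: cacTGCttagctgggatctctCGC
Each stretch lay within 1 exon, the last exon in 7 of the 9 genes, and in Dusp2 it was chr2:127337616-127337639 on the plus strand. Of its 24 positions, 11 were identical in all 9 genes. Dusp4 matched Dusp1 and Dusp10 at 22 positions each, Dusp2 matched Dusp8 and Dusp16 at 21 each, and Dusp6 matched Dusp7 at 19 and Dusp5 at 13. The likeness did not extend to stretches long enough to confuse reads: no run of 50 bases of any member occurred in another member. Dusp5 shared 20.5% of its 50-base windows with the transcript of an antisense gene that overlaps its start, AC137853.2, and Dusp8 shared 0.189% with 3 other genes. The strand setting of the counting is not given in the sources used here. Reads of Dusp5 and of its antisense partner therefore could not be told apart.

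Library totals lay between 15563800 and 16710975 counts, and the members had 87 to 4492 counts per library, so counting error was widest for Dusp8. The gene named on the labels, Gc, had 0 counts in all 6 libraries, which allows up to 0.177 to 0.192 CPM per library (3 counts), so each direction below is that of the libraries labelled Vdbp. Macrophage markers were abundant (6 of 7 at 1 CPM or more, summed level 4401 to 4953 CPM with empty vector and 4160 to 4310 CPM with the Vdbp label). Of the dendritic cell markers 6 of 12 reached 1 CPM (summed level 259 to 279 CPM with empty vector and 256 to 269 CPM with the Vdbp label), with Cd86 the highest, while Flt3, Batf3, Xcr1, Clec9a, Ccr7 and H2-Ab1 stayed below it. Summed T cell, B cell, fibroblast and epithelial markers stayed under 1 CPM in each library (at most 0.120, 0.359, 0.964 and 0.302 CPM), and Cd3e, Col1a2 and Krt8 were among those at 0 in all. The mitochondrial share of counts was 1.49% to 2.61%. A pair of libraries stood apart by base composition. The deviation of a library from the mean of all libraries correlated across genes with transcript G+C content at a Spearman's rho of −0.63 in empty-vector replicate 2 and 0.74 in Vdbp replicate 1, and at −0.40 to 0.06 in the other 4. Results are therefore given as counted, after a correction that takes out each library's trend on G+C content and gene length, and without both of those libraries. The correction does not use the group labels, so it also removes any part of a group difference that follows G+C content.

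Dusp4 was the most abundant MAP kinase phosphatase in DC2.4 cells and Dusp8 the least. Levels between genes are given as CPM (counts scaled to a common library size) per kilobase of the deposited gene length, as mean ± SD over all 6 libraries. That length equalled the longest protein-coding transcript in Dusp4 (2740 bases). It was longer than that transcript in Dusp1 (2697 against 1990 bases) and Dusp2 (2003 against 1617), among others. Ratios between genes therefore depend on the length used. Dusp4 stood at 92.5 ± 5.46, 2.89 times the next gene, Dusp1, at 32.1 ± 2.38. A group of 4 genes followed, Dusp6 at 21.04 ± 1.80, Dusp7 at 19.9 ± 2.02, Dusp2 at 17.7 ± 3.21 and Dusp5 at 15.1 ± 0.55, and within it the ranges of neighbouring genes overlapped. The genes for the JNK and p38 phosphatases came last, with Dusp16 at 7.42 ± 0.77, Dusp10 at 3.24 ± 0.43 and Dusp8 at 1.51 ± 0.28. Of the 8 steps in this order, 5 had ranges over the 6 libraries that did not overlap, and the order spanned 61.3-fold. Among tested protein-coding genes, the per-kilobase level of Dusp4 was above 95.5% of genes, that of Dusp2 above 72.4% and that of Dusp8 above 16.4%.

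**Figure D1:**
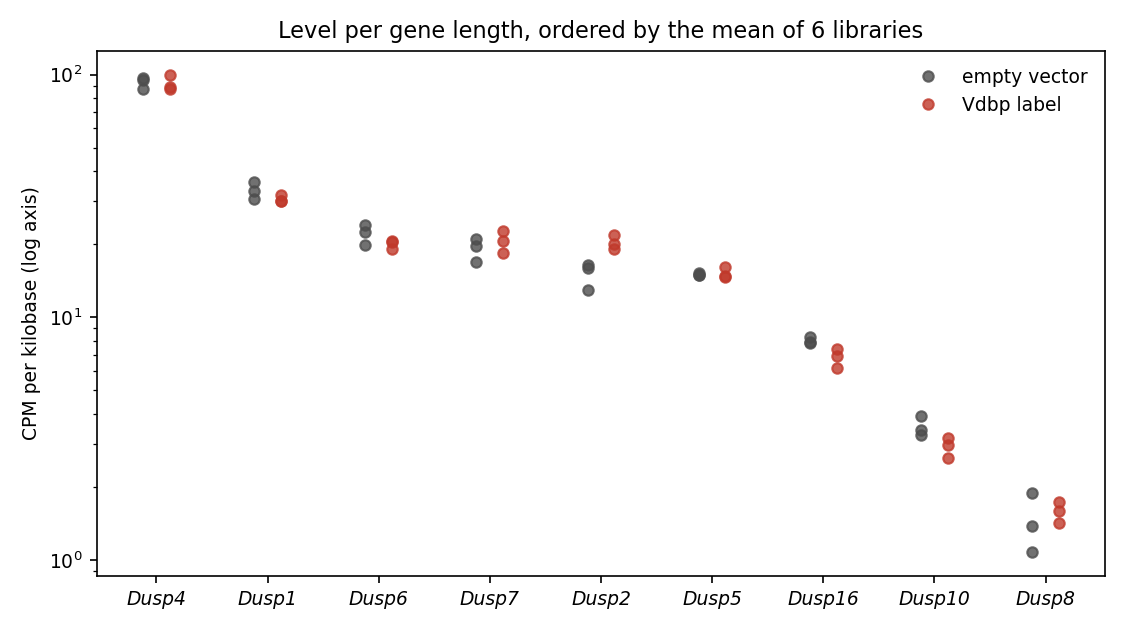
Level of each MAP kinase phosphatase in CPM per kilobase (log axis), 1 point per library, grey for empty vector and red for the Vdbp label, with genes ordered by the mean of 6 libraries. Dusp4 lies at 86.9 or more in every library and Dusp8 at 1.88 or less, and the ranges from Dusp6 to Dusp5 overlap step by step.

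The summed per-kilobase level of the 9 genes did not part the groups: empty-vector replicates 1, 2 and 3 reached 215, 200.1 and 217, and the libraries labelled Vdbp 223, 205 and 202 in the same order. The nuclear inducible genes made up 74.2% ± 1.54 of it with empty vector and 75.3% ± 0.69 with the Vdbp label (SD, n = 3 each). The ERK phosphatases of the cytoplasm made up 19.6% ± 1.21 and 19.3% ± 0.15, and the JNK and p38 phosphatases 6.17% ± 0.42 and 5.42% ± 0.61. Dusp4 alone held 42.9% to 44.7% of the sum in any library. Dusp2 held 7.43%, 6.49% and 7.57% of it with empty vector, against 9.79%, 9.32% and 9.91% in the libraries labelled Vdbp, and the groups did not overlap. The share of Dusp1 did not overlap either, at 15.4%, 15.3% and 16.7% with empty vector and 14.3%, 14.8% and 14.8% in the libraries labelled Vdbp. The share of the JNK and p38 phosphatases also lay lower in each library labelled Vdbp (4.72%, 5.71% and 5.83%) than in any with empty vector (6.03%, 6.64% and 5.85%), with the nearest libraries close together. The total, the other 2 class shares and the shares of the other 7 genes overlapped. These shares are as counted, and shares of 1 sum depend on each other, so a larger share of Dusp2 lowers the others. Dusp2 was picked for its difference, so nothing is read from these separations. As counted, 10.9% of all tested genes did not overlap between the groups in CPM.

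No MAP kinase phosphatase passed edgeR's quasi-likelihood test between the groups. Of the 9 members 0 were called at an adjusted p under 0.05, beside 0% of the 12844 tested genes, and their adjusted p-values ran from 0.781 to 0.962. DESeq2 called 0 of the 9 as well, beside 0.0166% of the genes it tested. The log2 fold change was above 0 in 4 members and below 0 in 5, with a median of −0.02, against a median of −0.01 over all tested genes, of which 48.7% were above 0. In 3 members, Dusp2, Dusp10 and Dusp16, the 3 libraries of one group did not overlap the 3 of the other. Over all tested genes such a separation occurred in 10.9% (5.26% higher and 5.61% lower with the Vdbp label), and because Dusp2 was picked from this contrast nothing is read from the members' count. Leaving out 1 library relaxes this criterion, and it added Dusp8 without empty-vector replicate 1 (18.6% of all tested genes separated), Dusp1 without replicate 2 (14.8%) and Dusp6 without replicate 3 (28.5%). It added Dusp1 without Vdbp replicate 1 (18.2%) and no member without Vdbp replicate 2 or 3 (19.5% and 28.1%). For 7 members the 95% interval stayed inside a 1.5-fold difference in either direction, and for Dusp2 and Dusp10 it reached beyond. Among the 12844 tested genes the interval stayed inside for 9073, so the members' count is not particular to them.

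**Figure D2:**
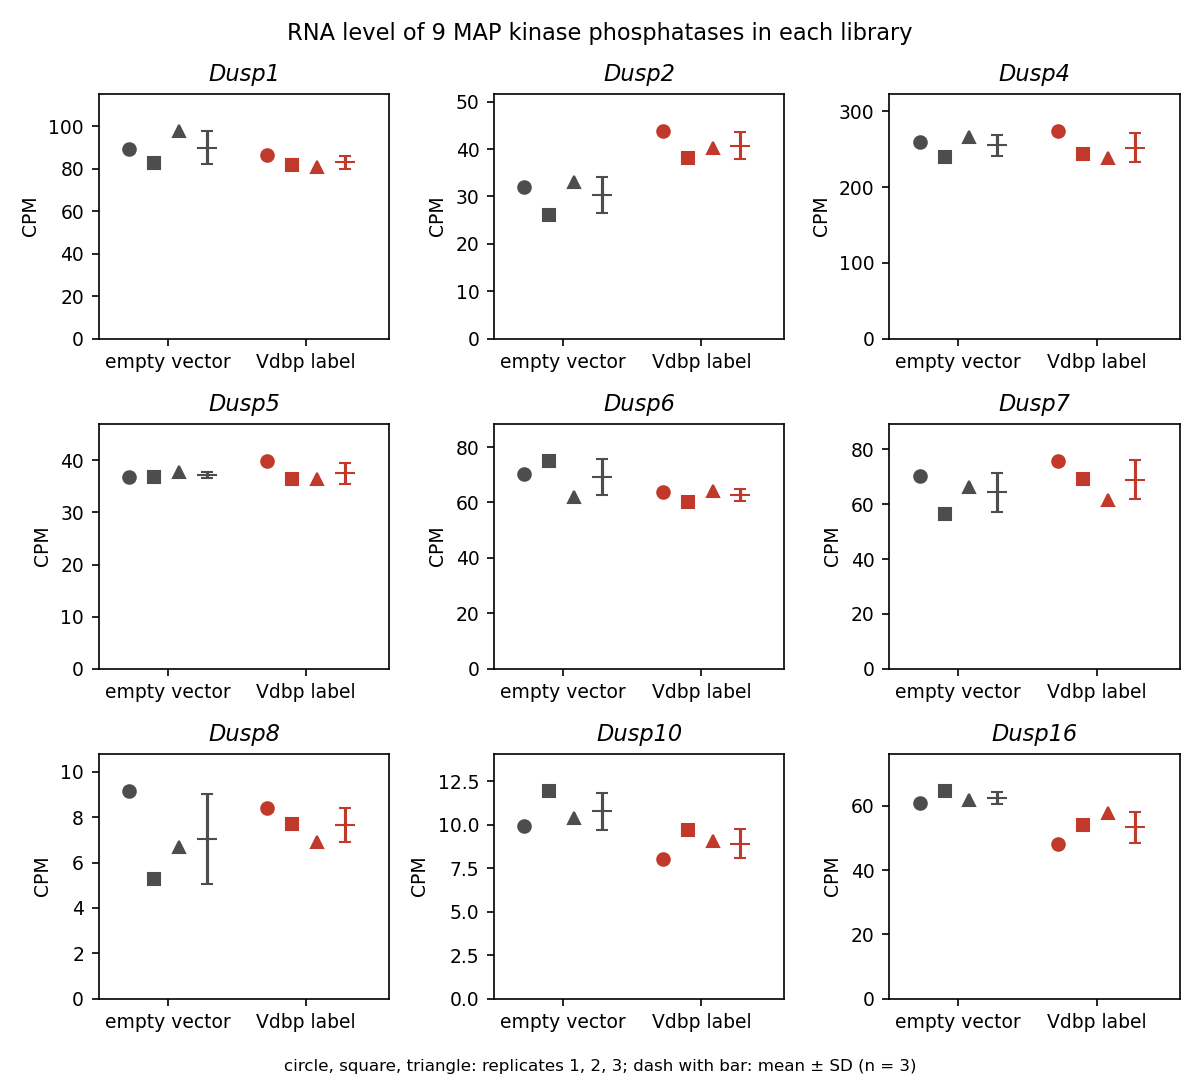
CPM of each MAP kinase phosphatase in each library (linear axis from 0), with grey for empty vector, red for the Vdbp label, circle, square and triangle for replicates 1, 2 and 3, and the mean ± SD (n = 3) beside them. Dusp2 sits at 26.0 to 32.9 CPM with empty vector and 38.2 to 43.8 CPM with the Vdbp label, Dusp10 and Dusp16 lie lower with the Vdbp label without overlap, and the groups overlap in the other 6 genes.

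Dusp2 encodes a nuclear phosphatase of ERK and p38 (ENSMUSG00000027368, chromosome 2, 127336159 to 127338376, plus strand, 4 exons). With empty vector it was measured at 32.0, 26.0 and 32.9 CPM (replicates 1, 2 and 3, the order used throughout), and the libraries labelled Vdbp read 43.8, 38.2 and 40.2 CPM. All 3 libraries labelled Vdbp lay above all 3 empty-vector libraries, and the lowest value belonged to empty-vector replicate 2. The means were 30.3 ± 3.75 and 40.7 ± 2.86 CPM (SD, n = 3 each), which gave a log2 fold change of 0.43 (SE 0.12, 95% interval 0.16 to 0.70), or 1.34-fold. After the correction for G+C content and length the libraries stood at 33.3, 30.3 and 32.0 CPM with empty vector, against 35.7, 37.5 and 42.7 CPM in the libraries labelled Vdbp. They still did not overlap, and the log2 fold change was 0.28 (0.09 to 0.46), with an edgeR adjusted p of 0.463. Because Dusp2 was picked from this contrast, neither the intervals nor the adjusted p test its difference. The order of the libraries changed: Vdbp replicate 1 was the highest as counted and Vdbp replicate 3 after the correction. Without the 2 libraries that stood apart the log2 fold change was 0.27, and without empty-vector replicate 2 alone it was 0.33, against 0.49 without empty-vector replicate 3.

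Dusp1, Dusp4 and Dusp5, the other nuclear members, were close to even between the groups as counted. Dusp4, a phosphatase of ERK and JNK (ENSMUSG00000031530, chromosome 8, 34807297 to 34819894, plus strand), was measured at 259, 240 and 266 CPM with empty vector, against 274, 244 and 238 CPM in the libraries labelled Vdbp. Those ranges overlap throughout, and the log2 fold change was −0.02 (95% interval −0.22 to 0.19). After the correction Dusp4 read 266, 265 and 264 CPM in the empty-vector libraries and 233, 242 and 249 CPM in the libraries labelled Vdbp. The empty-vector SD shrank from 13.6 to 1.33 CPM, the groups no longer overlapped, and the log2 fold change became −0.13 (−0.25 to −0.02, adjusted p of 0.524 in edgeR). Empty-vector replicate 1 held 4216 counts of Dusp4, with an exact 95% Poisson interval of 4090 to 4345. The corrected SD was thus smaller than counting error and does not measure how closely the libraries agree. Dusp1, the brake on p38 signalling in myeloid cells (ENSMUSG00000024190, chromosome 17, 26505590 to 26508519, minus strand), was measured at 89.4, 82.7 and 97.8 CPM with empty vector, against 86.3, 81.5 and 81.0 CPM in the libraries labelled Vdbp. Its log2 fold change was −0.12 (−0.33 to 0.09) as counted and −0.21 (−0.35 to −0.07) after the correction, where the groups did not overlap and the edgeR adjusted p was 0.440. Dusp5, an ERK phosphatase of the nucleus (ENSMUSG00000034765, chromosome 19, 53529109 to 53542431, plus strand), varied least of all members as counted, with a coefficient of variation within groups of 3.96%. It stood at 37.1 ± 0.58 and 37.6 ± 2.02 CPM, and its log2 fold change was 0.02 (−0.21 to 0.25) as counted and −0.11 (−0.29 to 0.06) after the correction.

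The cytoplasmic ERK phosphatases differed between the groups by no more than their spread. Dusp6, a target and inhibitor of ERK (ENSMUSG00000019960, chromosome 10, 99263231 to 99267489, plus strand), was measured at 70.3, 75.0 and 62.0 CPM with empty vector, against 63.7, 60.05 and 64.3 CPM in the libraries labelled Vdbp. Empty-vector replicate 3 fell among the libraries labelled Vdbp, and the log2 fold change was −0.14 (−0.37 to 0.09), or −0.13 after the correction. Dusp7 (ENSMUSG00000053716, chromosome 9, 106368632 to 106375724, plus strand) was measured at 70.2, 56.6 and 66.2 CPM with empty vector, against 75.8, 69.4 and 61.7 CPM in the libraries labelled Vdbp. Its highest library was Vdbp replicate 1 and its lowest empty-vector replicate 2, the 2 libraries that stood apart. The log2 fold change of Dusp7 was 0.10 (−0.15 to 0.35) as counted, −0.03 after the correction and −0.06 without those 2 libraries.

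Dusp10 and Dusp16, both phosphatases of JNK and p38, were lower in every library labelled Vdbp than in any empty-vector library, whereas Dusp8 was not. Dusp16 (ENSMUSG00000030203, chromosome 6, 134715468 to 134792625, minus strand) was measured at 60.9, 64.6 and 61.6 CPM with empty vector, against 48.2, 53.96 and 57.7 CPM in the libraries labelled Vdbp. The empty-vector libraries lay close together and the libraries labelled Vdbp were spread more widely, with replicate 1 the lowest. Its log2 fold change was −0.23 (SE 0.10), −0.17 after the correction and −0.14 without the 2 libraries that stood apart. Dusp10 (ENSMUSG00000039384, chromosome 1, 184013302 to 184075636, plus strand) was measured at 9.96, 11.96 and 10.4 CPM with empty vector, against 8.03, 9.68 and 9.07 CPM in the libraries labelled Vdbp. The nearest libraries, empty-vector replicate 1 and Vdbp replicate 2, held 162 counts each, so the gap between the groups there was smaller than counting error. The log2 fold change of Dusp10 was −0.27 (SE 0.15, 95% interval −0.59 to 0.05), −0.25 after the correction and −0.12 without the 2 libraries. Dusp8 (ENSMUSG00000037887, chromosome 7, 142079490 to 142095843, minus strand) ranged from 5.25 to 9.16 CPM with empty vector, wider than its range of 6.90 to 8.40 CPM with the Vdbp label. Its log2 fold change was 0.13 with an interval of −0.32 to 0.57, which includes 0. Empty-vector replicates 1 and 2 held 149 and 87 counts, whose exact 95% Poisson intervals (126 to 175 and 69.7 to 107) do not overlap, so the libraries of that group differed by more than counting error.

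The order of the members by change was nearly their order by base composition. The G+C content of the longest protein-coding transcript was 59.2% in Dusp2, 58.8% in Dusp8, 57.6% in Dusp7, 56.7% in Dusp5, 56.0% in Dusp4 and 54.9% in Dusp1, and the log2 fold change stepped down in that order from 0.43 to −0.12. Dusp6, Dusp10 and Dusp16 had 49.0%, 48.4% and 47.8%, and their log2 fold changes were the lowest 3 (−0.14, −0.27 and −0.23). Spearman's rho between the 2 values was 0.98 across the 9 genes, which share the same libraries and are not independent. After the correction it was still 0.88. Dusp2, highest in both values, was picked for its difference between the groups, so both rho values are descriptions only. All tested genes showed the trend too, with a rho of 0.53 across genes as counted and 0.03 after the correction. Tested genes with a G+C content of 58% to 60% had a median log2 fold change of 0.15, and those with 46% to 48% a median of −0.07. Against the median of its own 2% range of G+C content, Dusp2 stood above and each of the other 8 members below.

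**Figure D3:**
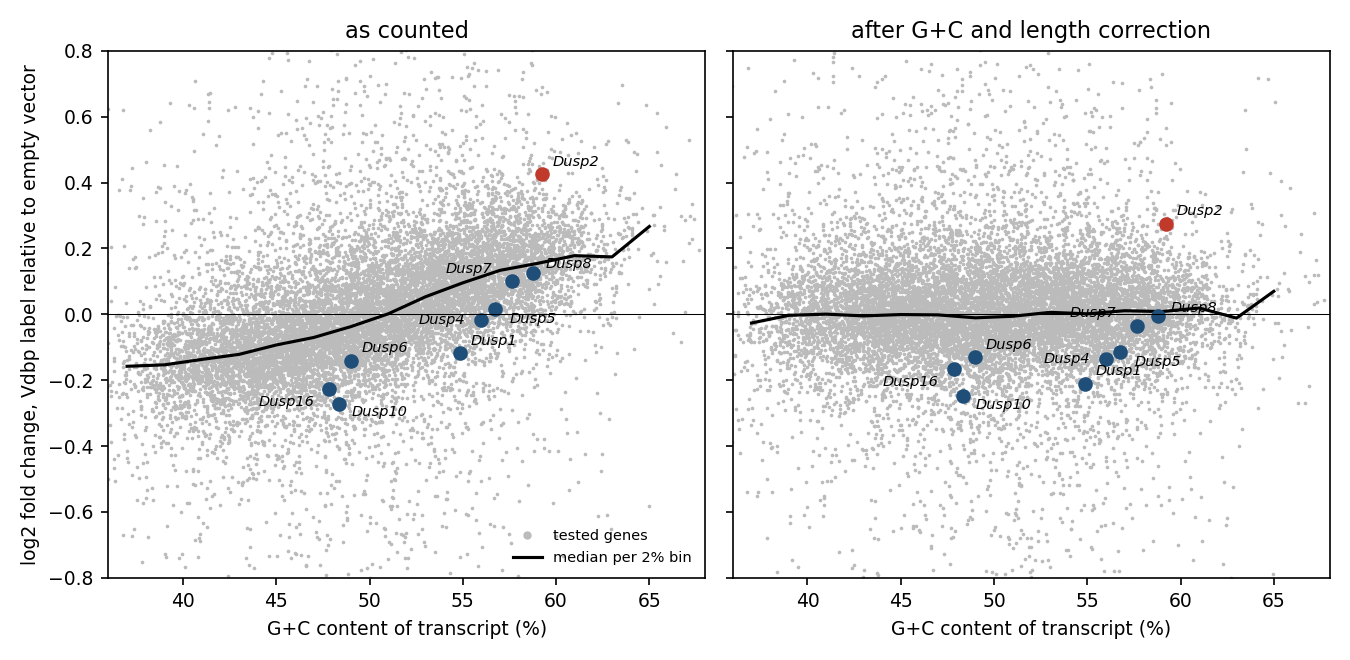
Log2 fold change (Vdbp label relative to empty vector) against the G+C content of the transcript in percent, for tested genes (grey points), their median in bins of 2% (line) and the 9 members (Dusp2 red, the others blue), as counted at the left and after the correction at the right. The median rises with G+C content at the left and runs close to 0 at the right, where Dusp2 stays at 0.28 and the other 8 lie below 0; 234 and 231 of 12844 genes lie outside the axes.

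After the correction 1 member lay above 0 and 8 below, while 50.1% of all tested genes lay above 0. The members' values ran from −0.25 to 0.28, a narrower range than −0.27 to 0.43 as counted. Of those below, Dusp7 (−0.034, 95% interval −0.18 to 0.11) and Dusp8 (−0.0060, −0.38 to 0.37) lay close to 0. The correction lowered the log2 fold change of the 6 members with the highest G+C content by 0.09 to 0.15 and changed the other 3 by 0.01 to 0.06 upward. Dusp5, Dusp7 and Dusp8 thereby turned from above to below 0. The median over the 9 members went from −0.02 to −0.13, while that over all tested genes was 0.00. After the correction, 5 members did not overlap between the groups (Dusp2 higher and Dusp1, Dusp4, Dusp10 and Dusp16 lower), beside 13.5% of all tested genes (6.49% higher and 7.06% lower). None of the 9 was called in that fit either (adjusted p-values of 0.440 to 0.996 in edgeR), where 0.0156% of all tested genes were. With both libraries that stood apart left out, leaving 2 against 2, Dusp2 was again the only member above 0, and 6 members did not overlap, beside 32.5% of all tested genes.

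**Figure D4:**
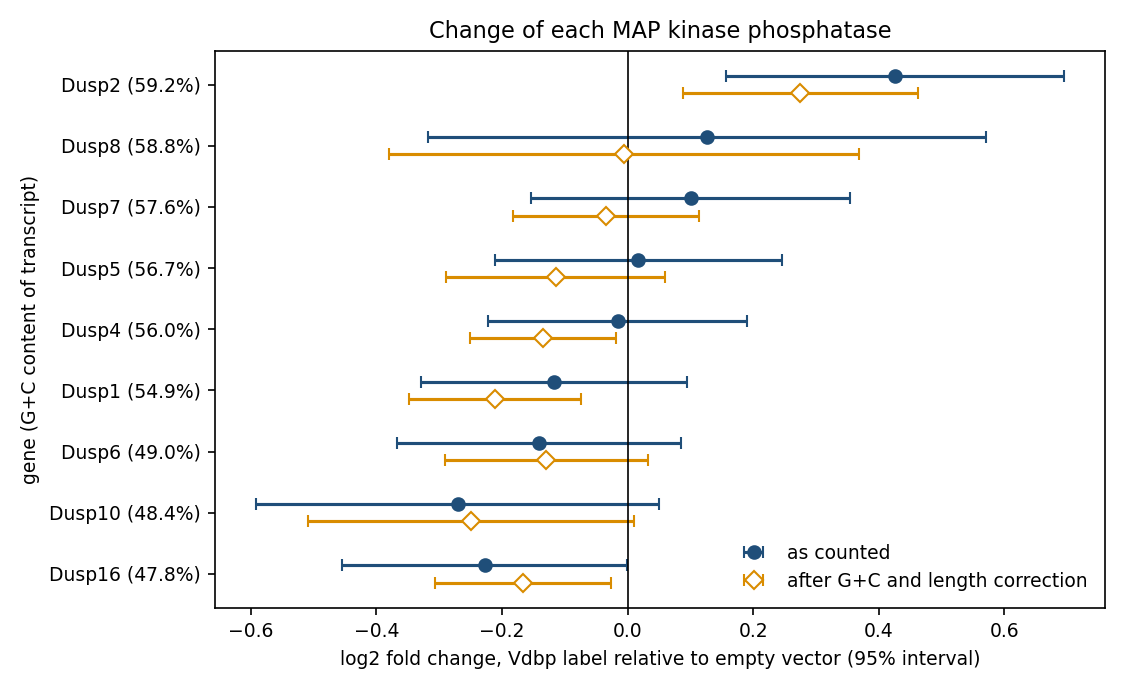
Log2 fold change of each MAP kinase phosphatase with its 95% interval, as counted (filled circles) and after the correction for G+C content and gene length (open diamonds), with genes ordered by the G+C content of the transcript. As counted the values step down from Dusp2 (0.43) at the top to Dusp10 (−0.27) and Dusp16 (−0.23) at the bottom, and after the correction Dusp2 (0.28) is the only one above 0.

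Features of the sequence that the choice of genes did not use varied among the members. The 3′ untranslated regions of Dusp1 and Dusp2 were rich in ATTTA, the core of AU-rich elements, which mark messengers for rapid decay. Dusp1 held 4 in 690 bases (5.80 per kilobase) and Dusp2 held 4 in 581 bases (6.88 per kilobase), densities above those of 95.8% and 97.4% of 10597 tested protein-coding genes, whose median was 1.35. The 30 bases around the densest part are shown for both, in the strand of the gene (GRCm38), with ATTTA in capitals; they lie at chr17:26506156-26506185 (minus strand) and chr2:127337998-127338027 (plus strand), each in exon 4.
Dusp1: gctggtccttATTTATTTAacacccccctc
Dusp2: aaattaATTTAattaattaATTTActatat
The other 7 members held 0 to 5, or 0 to 2.70 per kilobase, with none in Dusp7. Dusp1 also held 2 copies and Dusp8 1 copy of the longer TTATTTATT, which occurred in 8.46% of those genes. The 2 members with the densest ATTTA did not differ in the same direction, Dusp2 lying above 0 and Dusp1 below.

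Promoter windows from RefSeq (GRCm38.p6), from 250 bases before to 50 after the start, were found for 8 of the 9 members, all but Dusp4. Those of Dusp8 and Dusp10 lie wholly inside the gene. They were searched on both strands for TGACGTCA, the cyclic AMP response element, for its 5-base core TGACG, which lies inside it, for CACGTG, an E-box, for TGANTCA, the AP-1 site, and for TATAAA. The full response element occurred in Dusp1 and Dusp8 (2 of 8 windows, and 1.79% of all 32851 windows) and its core in 5 of 8 (20.8% of all). The E-box occurred in Dusp1 and Dusp2 (7.15% of all), and neither TGANTCA nor TATAAA occurred in any of the 8 (7.81% and 13.6% of all). A loose NF-kB pattern, a run of G and a run of C parted by 5 bases of any kind, occurred in 6 of the 8 (50.8% of all). The GC box, made of G and C alone, occurred in 7 (35.7% of all). The 8 windows had a G+C content of 57.3% (Dusp6) to 78.7% (Dusp7), against a median of 52.7% over all windows. The percentages over all windows were not matched for G+C content, so no excess or lack of a pattern is read from them. The windows of Dusp2, the member with the highest log2 fold change, of Dusp16, with the second lowest, and of Dusp1, which shares the E-box with Dusp2, are printed 5′ to 3′ in the strand of the gene with TGACG, TGACGTCA and CACGTG in capitals (CGTCA where the core is on the other strand). They are chr2:127335909-127336208 (plus), chr6:134792579-134792878 (minus) and chr17:26508423-26508722 (minus), with a G+C content of 70.7%, 68.7% and 67%.
Dusp2: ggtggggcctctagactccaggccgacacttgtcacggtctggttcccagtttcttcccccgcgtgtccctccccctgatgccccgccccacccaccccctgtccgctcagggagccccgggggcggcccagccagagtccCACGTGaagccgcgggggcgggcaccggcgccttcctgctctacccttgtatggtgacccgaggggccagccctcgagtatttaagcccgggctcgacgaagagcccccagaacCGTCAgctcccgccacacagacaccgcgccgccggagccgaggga
Dusp16: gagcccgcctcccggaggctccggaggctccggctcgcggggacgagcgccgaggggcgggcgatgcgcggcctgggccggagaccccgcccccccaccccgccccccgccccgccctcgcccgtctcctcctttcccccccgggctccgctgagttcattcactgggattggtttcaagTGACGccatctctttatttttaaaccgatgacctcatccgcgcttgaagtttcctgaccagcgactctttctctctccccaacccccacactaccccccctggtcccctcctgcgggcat
Dusp1: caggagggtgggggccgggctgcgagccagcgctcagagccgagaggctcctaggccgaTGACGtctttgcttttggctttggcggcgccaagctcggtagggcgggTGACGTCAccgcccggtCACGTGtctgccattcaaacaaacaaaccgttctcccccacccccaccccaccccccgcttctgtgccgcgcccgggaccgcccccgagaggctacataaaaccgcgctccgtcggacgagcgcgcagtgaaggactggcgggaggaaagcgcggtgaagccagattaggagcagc
These matches describe letters in the windows, and binding was not measured.

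The genes whose pattern over the 6 libraries was most like that of Dusp2, by Pearson's correlation of log2 CPM among 9549 protein-coding genes of at least 5 CPM, were Fbxw17 (r = 0.99), Sf3b5 (0.99) and Pigl (0.98). Fbxw17, an F-box gene, averaged 18.6 and 21.8 CPM with empty vector and the Vdbp label. Sf3b5, a splicing factor subunit, averaged 107 and 144 CPM, and Pigl, an enzyme of glycosylphosphatidylinositol anchor synthesis, 12.3 and 13.3 CPM. The G+C content of these 3 transcripts, 53.9%, 45.5% and 48.9%, lay below that of Dusp2. After the correction the nearest were Sept11 (0.98), Fbxw17 (0.97) and Phf21b (0.97), so 1 gene was in both lists. These are the highest of 9549 correlations over only 6 libraries. Whether they exceed what unrelated genes would reach was not tested.

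The rest of the MAP kinase pathway was read from lists of its parts, and no member of any of the 8 lists was called by edgeR in either direction (lowest adjusted p of 0.781). Dusp9, the remaining gene of the phosphatase family and named here after its values were seen (ENSMUSG00000031383, X chromosome, 73639419 to 73643514), was measured at 13.6, 10.7 and 15.3 CPM with empty vector, against 18.9, 16.6 and 13.9 CPM in the libraries labelled Vdbp. Its transcript has 58.5% G+C, its groups overlapped, and its log2 fold change was 0.32 as counted and 0.18 after the correction. Among the other dual-specificity phosphatases, which include Dusp9, 7 of 14 tested genes lay above 0 (median −0.01). Dusp3, an atypical phosphatase without a kinase-binding domain, had the highest level of them, 148 ± 2.45 and 153 ± 11.5 CPM, and the values reached from Dusp14 (−0.16) to Dusp23 (0.34).

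The kinases that these phosphatases act on, and those above them, also stayed within a narrow range. Of the MAP kinases 10 of 14 were tested, with 3 above 0 and a median of −0.09. Mapk7, which encodes ERK5, had the highest log2 fold change of these (0.07, at 50.6 ± 5.93 and 53.2 ± 10.4 CPM). All 7 MAP kinase kinases were tested (4 above 0, median 0.05), with Map2k1, an activator of ERK, at 143 ± 1.07 and 140 ± 7.33 CPM, Map2k2 at 0.27 and Map2k4, an activator of JNK, at −0.17. Of 18 tested MAP kinase kinase kinases 8 lay above 0 (median −0.04). Their values reached from Map3k13 (−0.39) to Map3k11 (0.26).

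Genes downstream of the kinases held the values farthest from 0 in these lists. Among kinases activated by MAP kinases 7 of 10 lay above 0 (median 0.12, and 0.02 after the correction), with Mapkapk2, the p38-activated kinase, highest in level at 639 ± 47.1 and 711 ± 88.6 CPM. Mapkapk5, at 2.07 ± 1.64 and 4.06 ± 1.255 CPM, stood at a log2 fold change of 0.96 with an SE of 0.43, and Rps6ka5, which encodes a nuclear kinase that phosphorylates histones, −0.27. Of the Sprouty and Spred inhibitors of ERK signalling 5 of 7 were tested (3 above 0, median 0.03), from Spred1 (−0.16, at 105 ± 6.49 and 93.6 ± 11.3 CPM) to Spred2 (0.06). ERK-responsive transcripts, a readout of the signal that induces several of the phosphatases, had 8 of 16 tested genes above 0, with a median of 0.02 as counted and −0.13 after the correction. Junb was highest in level at 188 ± 35.8 and 218 ± 39.3 CPM, with a log2 fold change of 0.21 that became 0.02 after the correction. Fosb, at 3.73 ± 1.87 and 1.81 ± 0.87 CPM, was lowest at −1.05 (SE 0.40), and its groups overlapped. Fos, named after its values were seen, had a mean of 27.4 CPM over the 6 libraries and a log2 fold change of −0.68, and −0.71 after the correction. Proteins that bind AU-rich elements had 6 of 7 above 0 (median 0.08). Of these, Hnrnpd was measured at 81.9 ± 9.03 and 96.3 ± 3.70 CPM (log2 fold change 0.23, and 0.38 after the correction), Khsrp had the highest level at 199.7 ± 12.9 and 211 ± 25.04 CPM, and Tia1 the lowest log2 fold change at −0.09.

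**Figure D5:**
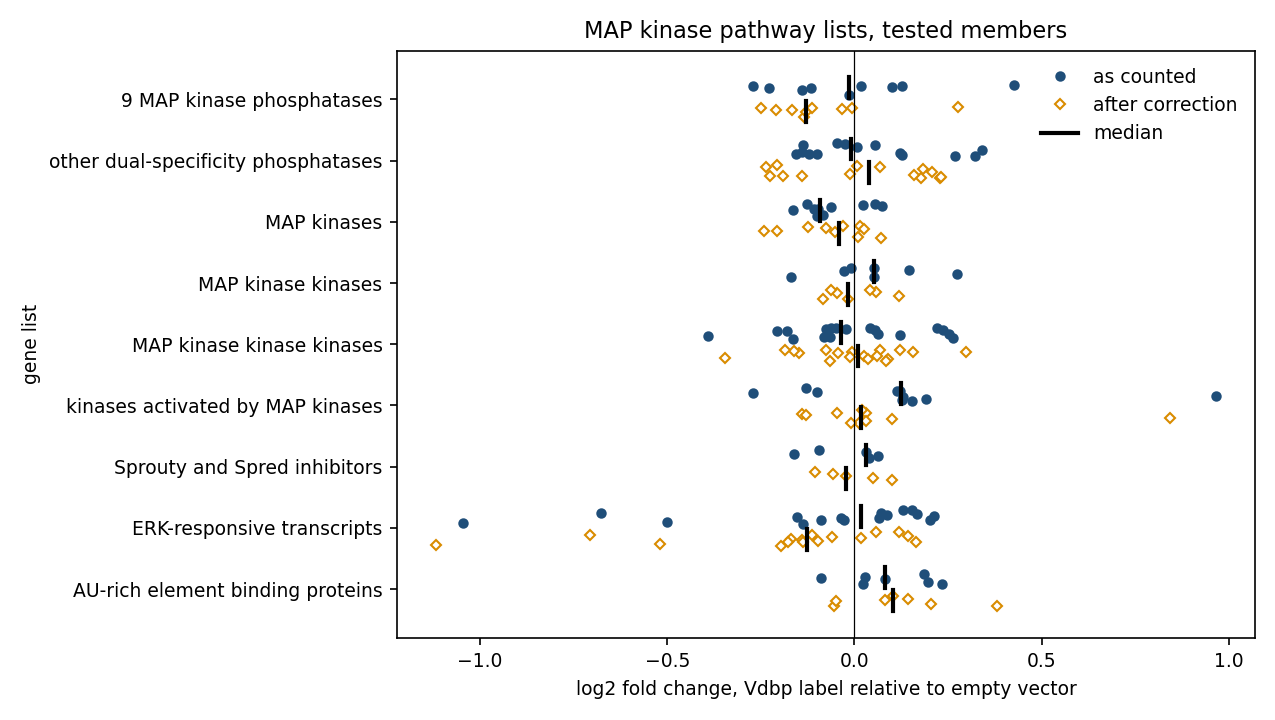
Log2 fold change (Vdbp label relative to empty vector) of each tested gene, 1 row per list, as counted (blue circles) and after the correction (open diamonds), with black bars for the medians. The medians of all lists lie between −0.13 and 0.12, and Dusp2 (0.43) is the rightmost of the 9 MAP kinase phosphatases in the top row.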

How the data were processed

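Whole-gene counts from 6 messenger RNA libraries were analysed. The authors deposited unnormalised counts per Ensembl gene and an FPKM table for the same genes. The submitters' processing notes name HISAT2 and StringTie. The genome build is not given in the sources used here, nor are the annotation and the counting tool. Each deposited FPKM equalled count divided by the table's gene length and 1 constant per library. Of the gene identifiers 99.9% were in GENCODE M21 (GRCm38), 98.3% of these with the same start and end. Gene positions are those of the deposited table.

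Counts were fitted in R 4.3.3 with edgeR 4.0.16: filterByExpr (minimum count 10, minimum total 15, minimum proportion 0.7), TMM scaling, and a two-sided quasi-likelihood test of group, with no covariate, adjusted by Benjamini-Hochberg over 12844 genes. CPM use TMM-scaled library sizes. G+C contents came from the longest protein-coding transcript in GENCODE M21 where a gene has one. The correction fitted, per library, smooth terms (mgcv 1.9.3) of log2 CPM deviation on G+C content and gene length and passed them to edgeR as an offset. Alternatives were DESeq2 1.42.0, RLE or total-count scaling in edgeR, limma-voom (limma 3.58.1), limma on log2(FPKM + 1) and log2(FPKM + 0.1), a block by replicate number, other filters, and fits with libraries left out. The procedure was tested on simulated data. The members, the lists and the tests were chosen with earlier results of these data known. Besides the 9 members, named genes were, per list, the highest level and the highest and lowest log2 fold change, the 3 genes most like Dusp2, Dusp9 and Gc; some genes that this rule names are not reported here. The same replicate number did not pair libraries.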

Additional observations from a re-analysis of the deposited data

How the results depend on the processing

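No MAP kinase phosphatase was called in any of the 18 alternative fits. Dusp2 was above 0 in all 18 (log2 fold change 0.27 to 0.49), and Dusp1, Dusp6, Dusp10 and Dusp16 were below 0 in all 18. The other 4 members changed sign in 3 or 4 of them. With the correction for G+C content and length, Dusp5, Dusp7 and Dusp8 stood at −0.11, −0.034 and −0.0060. With the replicate block added these 3 genes stood at −0.11, −0.034 and 0.0080, so Dusp8 lay just above 0 in that fit. Leaving out both libraries with the strongest G+C trend, a fit chosen after earlier results were seen, gave −0.037, −0.060 and −0.12 for Dusp5, Dusp7 and Dusp8. Leaving out 1 library at a time gave −0.17 (without empty-vector replicate 2) to −0.052 (without replicate 3) for Dusp1, −0.21 (without empty-vector replicate 3) to −0.077 (without replicate 2) for Dusp6, 0.016 (without empty-vector replicate 2) to 0.17 (without Vdbp replicate 3) for Dusp7, −0.077 to 0.024 for Dusp4, −0.025 to 0.041 for Dusp5 and −0.045 to 0.36 for Dusp8. Members without overlap numbered 3 as counted (10.9% of all tested genes), 5 with the correction (13.5%) and 6 without both libraries (32.5%). Over all genes the fit called 0; DESeq2 called 4, edgeR without a filter on low counts 89, edgeR with the correction 2, and edgeR without both libraries 2. Leaving out 1 library gave 0 to 22 calls, the highest without empty-vector replicate 3. Without a filter the lowest counts enter the test; the cause of the other differences was not tested. At an unadjusted p under 0.05 edgeR had 687 genes. The replicate block called 0 genes, alone or with the correction. The order of per-kilobase levels read from the deposited FPKM again had 5 steps without overlap. Those FPKM rest on the same counts and gene lengths, so this reading is not a separate check of the order. Deviations of same-numbered libraries correlated at 0.14, 0.03 and −0.27, and 2 of 6 libraries correlated best with their own number, so no pairing was used. Counts were lowest for Dusp8 and Dusp10, at 87 to 198 per library.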
